A study of Mus musculus with 4 samples.

Results

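Border-associated macrophages are the resident macrophages of the meninges, the perivascular spaces and the choroid plexus, where they take up material from cerebrospinal fluid and the vessel surroundings. They share the myeloid programme of parenchymal microglia, including the growth factor receptor Csf1r and complement C1q, but carry scavenger and endocytic receptors such as Mrc1, Stab1 and Cd163. They were measured here by single-nucleus RNA sequencing (10x Genomics 3′ chemistry) in snap-frozen hemispheres from the brains of C57BL/6 mice aged 14 days. The members were chosen by their own counts. A nucleus was taken when it had at least 500 UMIs and under 5% mitochondrial UMIs, a UMI of at least 2 of the 6 border genes Mrc1, F13a1, Stab1, Cd163, Ms4a7 and Pf4, and at least 1 UMI over the 4 myeloid genes Csf1r, C1qa, Inpp5d and Dock2. This rule selected 91 of 16076 kept nuclei (0.566%), from 17802 barcodes in all.

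The 4 libraries were 2 labelled WT, which carried Slc17a6-Cre with Ago2 wt/wt, and 2 labelled cKO, which carried Slc17a6-Cre with Ago2 flox/flox. All mice thus carried the Cre driver, which is active in neurons with the glutamate transporter VGLUT2 and not in macrophages. The labels name no treatment. The series' design text speaks of cortical cells whereas the protocol describes hemispheres. That the libraries of 1 genotype are from different animals is stated nowhere in the labels, and p-values therefore measure only how libraries vary, which may be technical. No label gives a preparation batch, and its effect cannot be told apart from that of genotype.

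WT replicate 2 stood apart by depth, with 29317266 UMIs against 10845009 to 13107920 in the other libraries, and WT replicate 1 by its mitochondrial content, since the mitochondrial maximum removed 17.8% of its barcodes against 5.64% to 8.78% elsewhere. Between 3259 and 6159 nuclei were kept per library. Pairs of libraries shared 37 barcodes in all, and no barcode was a member in both. The members numbered 21 in WT replicate 1, 36 in WT replicate 2, 14 in cKO replicate 1 and 20 in cKO replicate 2. Values given for 4 libraries below follow that order. A member held a median of 1702 UMIs, and the 91 together held 287861 UMIs, so that 3 counts over all members correspond to 10.4 CPM (UMIs of a gene for every 1000000 UMIs summed over the nuclei of a class).

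The targeted gene, Ago2, gave 9, 7, 2 and 8 UMIs in the members, or 86.7, 85.3, 47.9 and 133 CPM. The WT values lay between those of the cKO libraries, and the gene had too few counts to be tested between genotypes within the members. In the test of the difference in genotype effect from microglia-type nuclei, described last, it did not pass (log2 −0.27, SE 0.97, edgeR adjusted p = 1). These values check nothing about the labels, since the driver is not active in macrophages, the reads are 3′ tags and no source used here names the deleted exons. The driver's own gene, Slc17a6, gave 4, 0, 1 and 2 UMIs in the members.

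Among the genes that chose the members, Mrc1, the mannose receptor, and F13a1, the coagulation factor XIII A subunit, were the most abundant. Mrc1 was present with 122, 210, 41 and 155 UMIs in 84 nuclei, which is 1175, 2558, 982 and 2574 CPM. F13a1 had 121, 179, 58 and 199 UMIs in 79 nuclei, which is 1166, 2180.4, 1389 and 3305 CPM. Both genes were lowest in WT replicate 1 and cKO replicate 1, and both were detected together in 72 nuclei. Stab1, the scavenger receptor stabilin-1, had 49, 108, 24 and 71 UMIs in 83 nuclei. Cd163, the receptor for haemoglobin bound to haptoglobin, had 12, 40, 8 and 25 UMIs in 40 nuclei. The membrane protein gene Ms4a7 and the chemokine gene Pf4 were sparse, with 24 UMIs in 19 and 36 UMIs in 22 nuclei. Of the myeloid genes, Csf1r had 120 UMIs, C1qa 119, Inpp5d 150 and Dock2 102. These counts describe the choice and were not tested.

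The label was checked against genes that the rule did not use: 31 further border macrophage genes, among them Lyve1, Folr2, Dab2, Apoe and Colec12, and 17 homeostatic microglia genes, among them P2ry12, Tmem119, Cx3cr1 and Siglech. Nuclei with at least 2 of the 4 myeloid genes detected and no UMI of the 6 border genes served as the comparison and are called microglia-type nuclei (265 nuclei, 46, 113, 48 and 58 by library, median 1489 UMIs). The 31 border genes made up 59, 110, 58.7 and 99.3 of every 10000 UMIs in the members by library and 11, 13, 16.6 and 11.7 in the microglia-type nuclei. The 17 homeostatic genes made up 11.5, 25.7, 30.7 and 7.81 in the members and 52.6, 45.6, 54.8 and 46.2 in the microglia-type nuclei. In each library the members were thus on the border side of both lists. More UMIs of the border than of the homeostatic list were found in 76 of 91 members and in 23 of 265 microglia-type nuclei.

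The label held less well at the edge of the rule. Exactly 2 of the 6 border genes were detected in 20 members, and only 8 of these had more border than homeostatic UMIs, against 68 of the 71 members with 3 or more. Just inside the threshold, the 20 nuclei carried 15.2 UMIs of the other border genes and 16.1 of the homeostatic genes per 10000. Just outside it, the 205 nuclei with 1 border gene and a myeloid UMI carried 12.4 and 24.5, whereas the 71 members carried 130 and 18.6. The nuclei at the edge were spread unevenly, at 6, 5, 7 and 2 by library, which is 50.0% of the members of cKO replicate 1 and 10.0% of those of cKO replicate 2. The 20 edge nuclei are therefore described by their rule only.

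**Figure D1:**
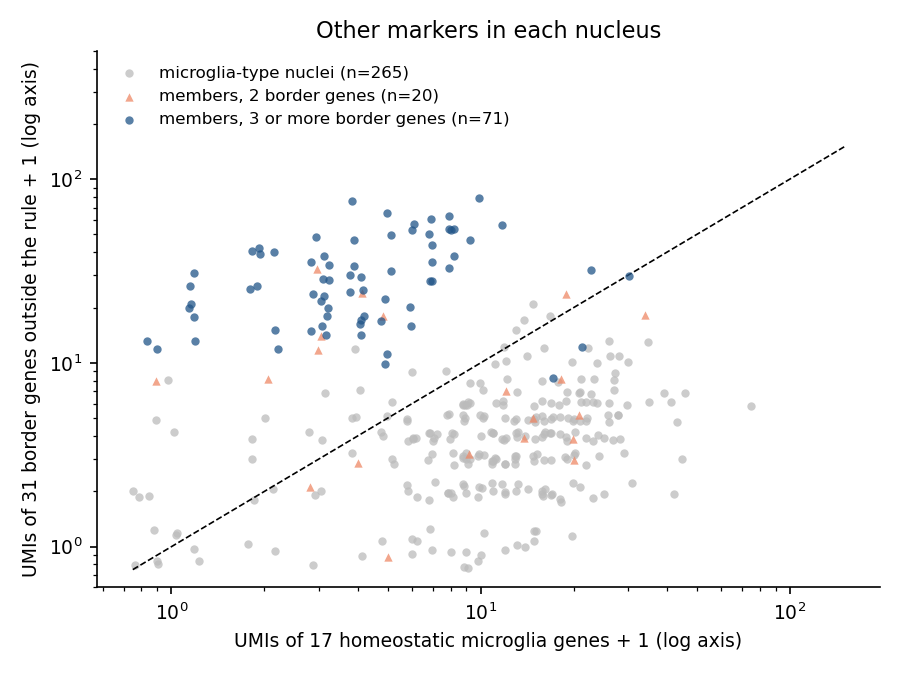
Each point is a nucleus, placed by its UMIs of 17 homeostatic microglia genes and of 31 border genes outside the rule (both +1, log axes, points spread slightly to separate ties), and the dashed line marks equal counts. Of the 71 members with 3 or more border genes, 68 had more border than homeostatic UMIs, against 8 of the 20 members with 2 and 23 of the 265 microglia-type nuclei.

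Of the defining markers of blood cells, the members held 0 UMIs of 7 neutrophil genes and 0 of Cd3e, Cd3d and Cd3g. Ly6c2 had 0 UMIs and Ccr2, the chemokine receptor of incoming monocytes, had 1. Over whole lists, the members held 19 UMIs of monocyte genes (0.66 of every 10000), 20 of T and NK cell genes (0.695), 32 of dendritic cell genes (1.11) and 36 of erythroid genes (1.25). The same lists stood at 0.576, 0.577, 0.863 and 0.648 in 13093 neuron-type nuclei, which had at least 5 of 12 neuron markers and belonged neither to the members nor to the microglia-type nuclei. The B cell, platelet and mast cell lists had only 6, 2 and 6 UMIs in the members (0.208, 0.0695 and 0.208 of every 10000). They stood at 0.0470, 0.0165 and 0.292 in the neuron-type nuclei, so the first 2 were further above that level than the lists before. Before members and microglia-type nuclei were taken out, 40 of 13275 nuclei with at least 5 neuron markers met the rule (0.301%). Of the neuron-type nuclei, with a median of 2953 UMIs, 5.31% had a UMI of Dab2 and 0.0382% of Lyve1, neither of which the rule used, against 81.3% and 26.4% of the members, with a median of 1702 UMIs.

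Markers of other cell types were most abundant in 12 members of over 5000 UMIs, of which WT replicate 1 held 6, WT replicate 2 held 2, cKO replicate 1 held 1 and cKO replicate 2 held 3. They carried 77.3%, 26.2%, 32.3% and 56.2% of all member UMIs of those libraries. The nucleus of 47558 UMIs in WT replicate 1 alone held 45.8% of that library's sum and 1040 UMIs of neuron markers. Others carried 662 neuron-marker UMIs (cKO replicate 2, 20839 UMIs), 269 neuron-marker UMIs (cKO replicate 1, 13477 UMIs) or 124 UMIs of astrocyte and 105 of oligodendrocyte markers (WT replicate 1, 9036 UMIs). Neuron markers made up 189 of every 10000 UMIs in the 12 nuclei and 62.0 in the other 79, while the 31 border genes made up 24.2 and 144. A doublet score marked 2 members, both in cKO replicate 1, and 0 of the 12. Results are therefore also given without nuclei of over 5000 UMIs, a limit chosen after these values were seen.

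**Figure D2:**
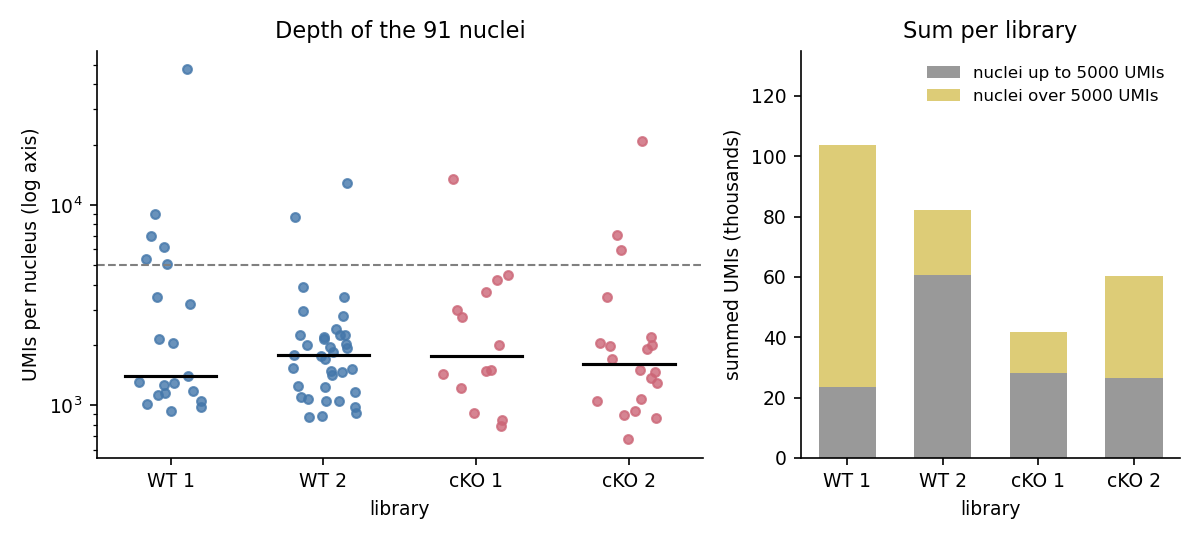
Left, UMIs of each of the 91 member nuclei by library (log axis), with the median as a bar and a dashed line at 5000 UMIs; right, summed member UMIs per library in units of 1000, split at that line. The 12 nuclei above the line hold from 26.2% (WT replicate 2) to 77.3% (WT replicate 1) of a library's sum.

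The first comparison asked whether the members were equally frequent in both genotypes. They made up 0.628% of the kept nuclei of WT replicate 1 (exact 95% binomial interval 0.389 to 0.958) and 0.585% of those of WT replicate 2 (0.410 to 0.808). In cKO replicates 1 and 2 they made up 0.422% (0.231 to 0.708) and 0.614% (0.375 to 0.946). These intervals, and all others below, cover counting error only. The groups overlapped, with means of 0.606 ± 0.0307% in WT and 0.518 ± 0.135% in cKO, each with the SD over n = 2 libraries, and the difference of −0.0882 percentage points had an exact permutation p of 0.667 (two-sided). With 2 libraries a group this test cannot go below 0.333. Without cKO replicate 1 the difference was 0.00743 points. With no mitochondrial maximum the shares were 0.664% and 0.578% in WT and 0.456% and 0.576% in cKO. They did not overlap there (exact permutation p = 0.333). With the other alternative choices of nuclei the shares of the groups overlapped. Against the myeloid nuclei alone, the members numbered 31.3 and 24.2 per 100 members and microglia-type nuclei in WT and 22.6 and 25.6 in cKO (means 27.8 ± 5.08 and 24.1 ± 2.16, exact permutation p = 0.667). Per 100 myeloid nuclei, WT lay at 27.3 and 26.2 and cKO at 23.2 and 24.6 without nuclei of over 5000 UMIs. With doublets removed they lay at 33.3 and 27.9 against 21.8 and 27.0. With no mitochondrial maximum they lay at 35.1 and 25.5 against 25 and 25.3. Each of these gave the lowest possible exact permutation p of 0.333. The groups overlapped with at least 3 border genes or at least 2 myeloid genes. No difference in frequency was detectable with this number of nuclei and libraries.

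**Figure D3:**
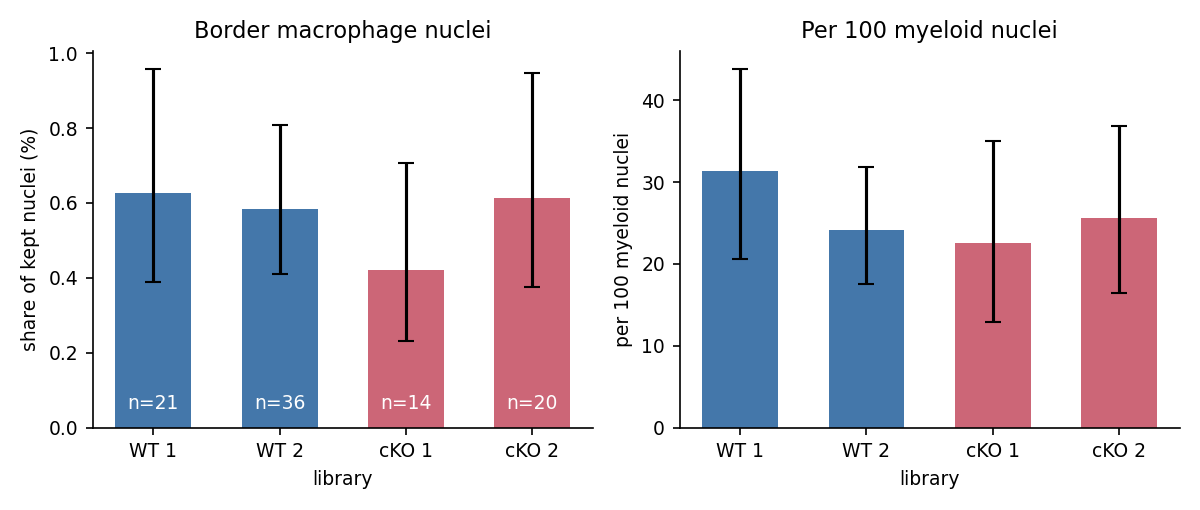
Members as a percentage of kept nuclei (left, bars, with n nuclei) and per 100 members and microglia-type nuclei (right) in each library, with exact 95% binomial intervals. The shares range from 0.422% in cKO replicate 1 to 0.628% in WT replicate 1 and the intervals of all 4 libraries overlap.

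The comparison with microglia-type nuclei asked which genes outside the rule differed between these macrophages and their parenchymal relatives in the same libraries. Of 2429 genes tested on UMIs summed per library and class (edgeR quasi-likelihood test with the library as a block), 44 were higher in the members (1.81% of the genes tested) and 24 were lower (0.988%), together 68 (2.8%). With an unadjusted p under 0.05 there were 303. Both classes were set on the 10 rule genes, which are left out of these counts. A gene can enter the test through only the class in which it is high, and its p-value is then a description. Dab2, Lyz2, Aoah and Cmah, given below, are among such genes. Without nuclei of over 5000 UMIs, 98 of 1477 genes were higher (6.64%) and 88 lower (5.96%). Of the 68 genes, 61 could be tested there, all 61 had the same direction and 59 passed again. Leaving out WT replicate 2, which holds the most nuclei, gave 10 higher and 1 lower. Leaving out WT replicate 1 gave 43 and 14, cKO replicate 1 gave 60 and 41, and cKO replicate 2 gave 21 and 9.

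Genes of endocytosis and lipid handling were among those that were higher. Dab2, an adaptor of clathrin-mediated endocytosis (chromosome 15 from 6299788 to 6440712, plus strand, GRCm38), stood at 1031, 1693, 599 and 1628 CPM in the members and at 54.1, 15.3, 45 and 32.1 CPM in the microglia-type nuclei (1238 ± 519.8 against 36.6 ± 16.8, SD, n = 4 libraries; log2 difference 5.18, SE 0.50, adjusted p = 1.09e-05). The lowest member library was thus above every comparison library, and Dab2 was detected in 74 of 91 members. Apoe, the lipid carrier (chromosome 7 from 19696109 to 19699188, minus strand), stood at 2659, 4117, 2155 and 3023 CPM against 339.9, 254, 441 and 353 CPM (log2 difference 3.15, SE 0.40, adjusted p = 0.000216). Colec12, a scavenger receptor of the collectin family, stood at 164, 707, 479 and 797 CPM against 30.9, 27.6, 126 and 16 CPM (log2 difference 3.62, SE 0.50, adjusted p = 0.000389). For Apoe the classes did not overlap in any library, and for Colec12 the smallest gap was between WT replicate 1 of the members and cKO replicate 1 of the comparison. Without nuclei of over 5000 UMIs the log2 differences were 5.29 for Dab2, 3.52 for Apoe and 3.85 for Colec12.

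Regulators of transcription and signalling were also among them. Rbpj, the DNA-binding partner of Notch receptors (chromosome 5 from 53466152 to 53657362, plus strand), stood at 1455, 4507, 1676 and 3505 CPM in the members and 69.5, 79.6, 117 and 64.1 CPM in the microglia-type nuclei (2786 ± 1469.9 against 82.6 ± 23.9, SD, n = 4; log2 difference 5.03, SE 0.47, adjusted p = 8.44e-06). Every member library exceeded every comparison library. Maf, a macrophage transcription factor, stood at 347, 658, 383 and 731 CPM against 169.9, 233, 279 and 144 CPM (log2 difference 1.39, SE 0.33, adjusted p = 0.0319), a smaller but separate range. Nrp1, a co-receptor for semaphorins and vascular growth factors, was higher with a log2 difference of 1.91. Among genes of small GTPases and membrane traffic, Arhgap15 differed by 4.60, Arhgef3 by 2.84, the endosomal chloride transporter gene Clcn5 by 2.65 and the Rab GTPase-activating gene Tbc1d4 by 2.58. The ubiquitin ligase gene Wwp1 differed by 2.40 and Dse, an epimerase of dermatan sulfate synthesis, by 3.21.

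Several genes of lysosomal and antibacterial enzymes were higher. The cathepsin genes Ctsc and Ctsb were higher by 3.02 and 2.17 on the log2 scale, 2 of the 8 genes of a 16-gene lysosome list that could be tested, while Ctss, Ctsd and Lgmn did not pass the test (log2 differences −0.29, −0.42 and −0.25). Lyz2, lysozyme, had 16, 29, 4 and 8 UMIs in the members and 1, 1, 2 and 0 in the microglia-type nuclei (log2 difference 4.98, SE 0.66, adjusted p = 0.000332). Its neighbour Lyz1 is a near-identical copy, so the assignment of its reads is uncertain. Aoah, which removes fatty acids from bacterial lipopolysaccharide, had 17, 31, 6 and 38 UMIs against 2 in all microglia-type nuclei together, a ratio of levels of 111 (95% interval 29.8 to 927). Cmah, which makes the sialic acid N-glycolylneuraminic acid, had 14, 22, 4 and 9 UMIs against 0, at least 39.3-fold higher when the 0 is replaced by 3 counts over the group. Fth1, the ferritin heavy chain gene, passed at 1.52 (adjusted p = 0.0433) but not without nuclei of over 5000 UMIs (1.08, adjusted p = 0.104). Gm30489, with 115 UMIs against 1, lies antisense within the rule gene F13a1 (chromosome 13 from 36963239 to 36973329, plus strand), and no source used here says whether counting used strand, so its reads cannot be told apart from those of F13a1.

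Of the genes that were lower in the members, 5 belonged to the homeostatic microglia list. Selplg, the P-selectin ligand (chromosome 5 from 113818536 to 113832644, minus strand), stood at 19.3, 36.5, 95.8 and 49.8 CPM in the members and 394, 269, 261 and 393 CPM in the microglia-type nuclei (log2 difference −2.84, SE 0.43, adjusted p = 0.00111). Siglech, a sialic-acid-binding lectin (chromosome 7 from 55768178 to 55778925, plus strand), had 3, 4, 9 and 0 UMIs in the members and 42, 128, 62 and 35 in the microglia-type nuclei (log2 difference −2.72, SE 0.47, adjusted p = 0.00366). Cx3cr1, the fractalkine receptor, stood at 116, 244, 383 and 66.4 CPM against 579, 539, 657 and 665 CPM (log2 difference −1.70, SE 0.39, adjusted p = 0.0272). In all 3 genes every member library lay below every microglia-type library, and cKO replicate 1, the library with the largest share of edge nuclei, was the highest of the member libraries. The transforming growth factor beta receptor gene Tgfbr1 differed by −2.06 and Csf3r, the granulocyte colony-stimulating factor receptor gene, by −1.81. The classes were not set alike on myeloid genes. A member needed only 1 UMI over the 4 genes, whereas a microglia-type nucleus needed 2 of them detected. Only 1 of the 4 was detected in 18 members. When members also needed 2, only 8 genes were lower and 36 were higher.

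Not every homeostatic gene was lower. P2ry12, the purinergic receptor of microglial processes, differed by −0.74 (adjusted p = 0.453), Cst3 by −0.88 and Fcrls by 0.09, and none of these passed the test. Genes lower in the members outside that list included the integrin genes Itgam (−2.22) and Itgb5 (−1.84), the endocytic receptor gene Lrp1 (−1.55), the Rap exchange factor gene Rapgef5 (−2.05), the toll-like receptor relative Cd180 (−1.97) and Plxdc2 (−1.88). Further genes in this direction were Col27a1 (−3.06), Cdh23 (−2.13), Il1rapl2 (−2.29), Rtn4rl1 (−2.08) and the uncharacterised 8030442B05Rik (−3.34) and Gm35188 (−1.87). Cx3cr1, Itgam, Cd180, Cdh23, Il1rapl2, Gm35188, Rapgef5, Col27a1 and 8030442B05Rik overlap other genes in the annotation, as do several of the higher genes (Dab2, Rbpj, Colec12, Aoah, Cmah, Clcn5, Tbc1d4, Wwp1, Dse, Ctsc, Arhgap15 and Arhgef3), so their counts may include reads of those genes. When the comparison was widened to 1493 nuclei with a single myeloid UMI or more, 54 of the 68 genes kept their direction and 43 still passed. Of the genes named here, 8 turned, Cx3cr1, Siglech and Tgfbr1 among them.

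**Figure D4:**
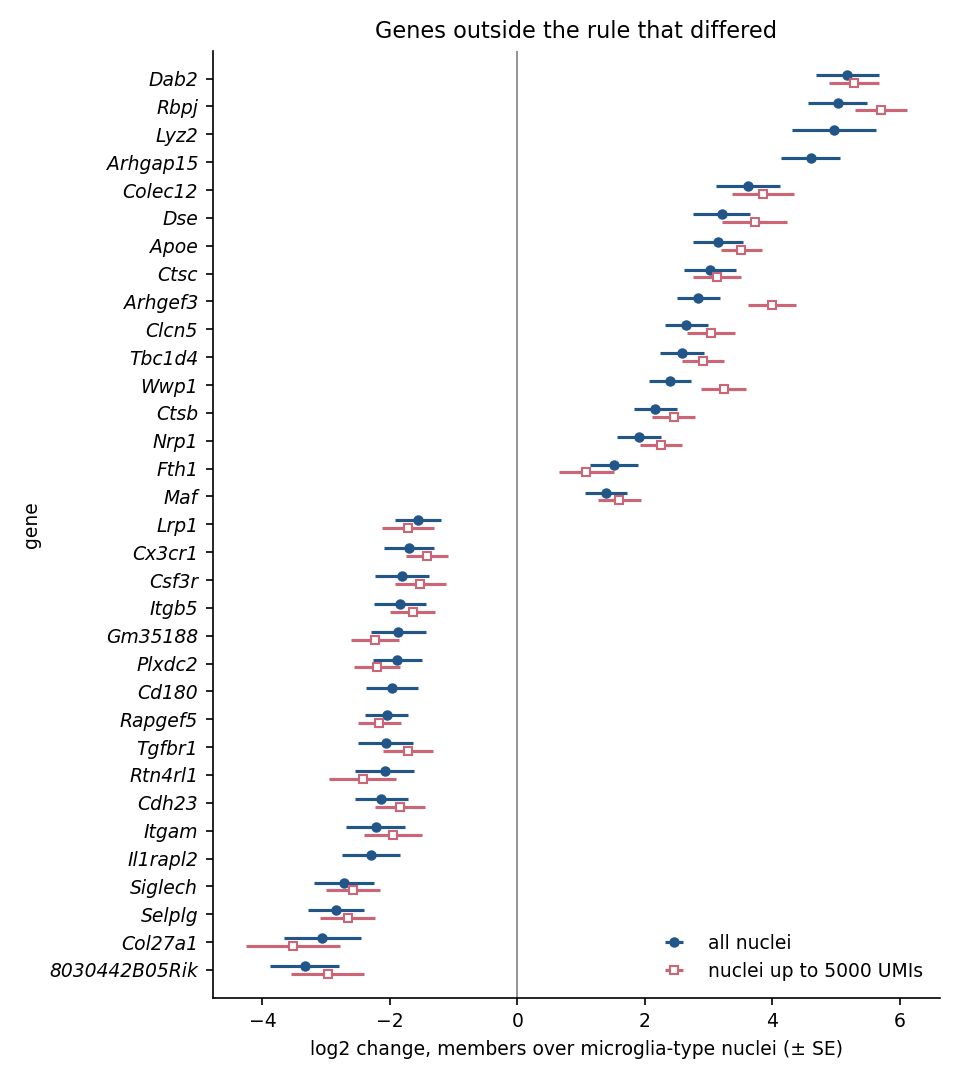
Log2 difference between members and microglia-type nuclei (points, with SE as bars) for the named genes past the threshold that had over 3 UMIs in each class, with all nuclei (filled) and with nuclei up to 5000 UMIs (open, where tested). Each gene keeps its direction, from 5.18 for Dab2 to −3.34 for 8030442B05Rik.

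Counted over whole lists, whether or not a gene could be tested, all 31 other border genes were higher in the members when the libraries were pooled and 21 of them in each of the 4 libraries, beside 48.7% and 3.91% of all detected genes outside the rule. Of these 31, 9 were tested and 6 passed (Apoe, Colec12, Dab2, Lyz2, Maf and Nrp1), all upward. Of the 17 homeostatic genes, 16 were lower when pooled and 9 in each library, beside 5.37% of all detected genes, and 5 of 10 tested passed, all downward. A gene can enter the test through the class in which it is high, so these counts are a description. Among 22 genes shared by myeloid cells, 9 were higher and 13 lower when pooled, with Arhgap15 and Itgam past the threshold in opposite directions. Complement genes were higher in 7 of 9 detected cases when pooled and in all 4 libraries for 3. C1qb and C1qc differed by 0.89 and 0.93 without passing, and passed without nuclei of over 5000 UMIs at 1.16 and 1.07 (adjusted p = 0.0135 and 0.0248). Scavenger and endocytic receptors were higher in 14 of 18, iron and haem genes in 8 of 9 and interferon response genes in 10 of 13 detected cases when pooled. They were higher in all 4 libraries for 6, 0 and 3 genes only. The scavenger list shares Cd36, Colec12, Dab2 and Timd4 with the border list, so its count is not separate from that list's. Markers of endothelium were higher in 8 of 8 and of fibroblasts in 8 of 9 cases when pooled, and in all 4 libraries for 0 genes. Without nuclei of over 5000 UMIs, 2 of 8 endothelial and 4 of 9 fibroblast markers were higher when pooled. The part of these cell types in the pooled counts was not tested.

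Several markers were too sparse to test. Lyve1, the hyaluronan receptor of perivascular and leptomeningeal macrophages, had 7, 6, 5 and 9 UMIs in 24 members and 0 in the microglia-type nuclei, at least 21.6-fold higher. Folr2, a folate receptor, had 3, 5, 1 and 5 UMIs and was at least 11.2-fold higher. Either gene was present in 31 members (34.1%) and both in 2. Cd36, a fatty acid and scavenger receptor, had 3, 19, 0 and 1 UMIs and was at least 18.4-fold higher, with WT replicate 2 holding most of them. Msr1, the class A scavenger receptor, had 5, 10, 13 and 17 UMIs against 3, a ratio of 36.1 (95% interval 11.6 to 181). The growth factor gene Igf1 had 19, 30, 3 and 9 UMIs against 12, a ratio of 12.2 (95% interval 6.51 to 24.9). The interferon-inducible Ifi207 had 2, 9, 5 and 17 UMIs against 5, a ratio of 15.9 (95% interval 6.15 to 52.1).

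Antigen presentation, a property used elsewhere to divide border macrophages, was close to undetected. H2-Aa, H2-Ab1 and H2-Eb1, which encode MHC class II chains, had 0 UMIs in the members, which allows a share of up to 3.30% of the nuclei with a UMI, and 0 in the microglia-type nuclei. Cd74, the class II invariant chain, had 1 UMI. Any gene of the 7-gene class II list was seen in 6 members (6.59%, median 1702 UMIs) and in 6.50% of neuron-type nuclei (median 2953 UMIs), so that the share in the members is read as background. The phosphatidylserine receptor gene Timd4 had 4 UMIs, while the inflammatory cytokine genes Tnf and Il1b, the scavenger receptor gene Marco and Spp1 had 0. Cell cycle genes were present in a few nuclei: 7 members had 3 or more UMIs of the 16-gene list, and 2 of these, in WT replicate 2 and cKO replicate 1, had 28 each. The latter was an edge nucleus, with 2 border genes of the rule and 33 homeostatic against 17 other border UMIs. Cenpf, a kinetochore gene, had 24 UMIs in the members against 3, a ratio of 19.2 (95% interval 5.84 to 99.8).

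The second main comparison asked whether deletion of Ago2 in VGLUT2 neurons went with a change in these macrophages. In summed nuclei, a lower gene level cannot be told apart from a different mix of nuclei among the members. Of 1758 genes tested outside the rule (edgeR), 1 passed the threshold (0.0569%), and the unadjusted p was under 0.05 for 95. That gene was Slc7a11, a cystine transporter that is also a meningeal fibroblast marker (chromosome 3 from 49892526 to 50443614, minus strand). It had 26, 26, 0 and 0 UMIs, at least 9.51-fold lower in cKO when the 0 is replaced by 3 counts over the group (adjusted p = 0.0206). Slc7a11 entered the test through the WT libraries alone, so its p-value is a description. All 52 UMIs lay in 4 nuclei, 26 of them in the WT replicate 2 nucleus of 12840 UMIs, and 78.8% in nuclei of over 5000 UMIs. Without those nuclei, the libraries had 11, 0, 0 and 0 UMIs. The 9 fibroblast markers, which include Slc7a11, made up 6.74, 6.82, 0.239 and 0.166 of every 10000 member UMIs. Their part in the result was not tested. Without nuclei of over 5000 UMIs, 500 genes remained for testing, Slc7a11 was not among them, 0 passed, and the unadjusted p was under 0.05 for 11. With all members, DESeq2 called 1 gene, mt-Co3, which belongs to the mitochondrial genes that the rule limits. Leaving out WT replicate 1 gave 1 call by edgeR and WT replicate 2 gave 23, Slc7a11 not among them in either case, and cKO replicate 1 gave 10 and cKO replicate 2 gave 0.

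The genes next in rank did not pass. Slc1a3, an astrocyte glutamate transporter, had 34, 26, 1 and 2 UMIs (log2 difference −3.44, adjusted p = 0.0535), 73.0% of them in nuclei of over 5000 UMIs. The noncoding 6330411D24Rik had 47, 12, 1 and 0 UMIs (adjusted p = 0.0535). Slc1a3 and 6330411D24Rik also entered the test through the WT libraries alone, so their p-values are a description. The mitochondrially encoded mt-Nd1 had 139, 24, 2 and 5 UMIs and mt-Co3 418, 94, 6 and 22 UMIs (−3.65 and −3.39, adjusted p = 0.0793 and 0.0825), with WT replicate 1 far above the other libraries. All 8 mitochondrial genes tested had lower fitted levels in cKO, beside 905 of all 1758 genes tested. Their median was −2.70, and −1.93 for the 4 testable without nuclei of over 5000 UMIs. The rule limits mitochondrial UMIs, so the values of mitochondrial genes are a description. Mitochondrial UMIs made up a median of 1.08%, 0.174%, 0.15% and 0.0889% of a member's UMIs by library. Oligodendrocyte markers made up 26.1, 22.4, 1.44 and 4.65 of every 10000 member UMIs and endothelial markers 10.8, 2.8, 0.718 and 0.498. With all members, both lists were thus higher in both WT libraries than in both cKO libraries. Without nuclei of over 5000 UMIs, oligodendrocyte markers made up 18.7, 6.61, 1.77 and 9.09, and WT replicate 2 lay below cKO replicate 2. The log2 difference of Mbp, the myelin basic protein gene, was −3.16 (adjusted p = 0.105) with all members and −1.23 without nuclei of over 5000 UMIs. The part of these markers in the other genotype values was not tested.

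The genes that marked the macrophages themselves did not pass the test between genotypes. The log2 difference, cKO against WT, was −0.32 for Dab2, −0.43 for Apoe, 0.55 for Colec12, 0.13 for Maf and 0.73 for Nrp1, and none passed. Of 10 tested genes of the other border list, 4 were higher and 6 lower in cKO, with a median of −0.16, beside −0.02 over all genes tested. The 6 tested homeostatic genes had a median of 0.14 and the 13 shared myeloid genes 0.38, and 0 genes of these lists passed. Without nuclei of over 5000 UMIs, 4 border genes were higher and 4 lower with a median of 0.11, the 5 homeostatic genes tested had a median of −0.06 and the 10 shared myeloid genes 0.45, beside 0.02 over all genes tested. Msr1 stood at 48.2, 122, 311 and 282 CPM, higher in both cKO libraries than in both WT libraries, but did not pass (log2 difference 1.77, SE 0.60, adjusted p = 0.371). It was 1.86 without nuclei of over 5000 UMIs, which hold 4.44% of its UMIs. In simulated data of this size the test recovered 4.48% of genes changed by 1 on the log2 scale. It recovered 59.7% of those changed by 2 and 83.1% of those changed by 3. Changes of 2-fold were thus mostly not detectable. The simulation gave every gene the same spread between libraries and did not model deep or mixed nuclei. The rates may therefore be too high for these data, which was not tested.

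**Figure D5:**
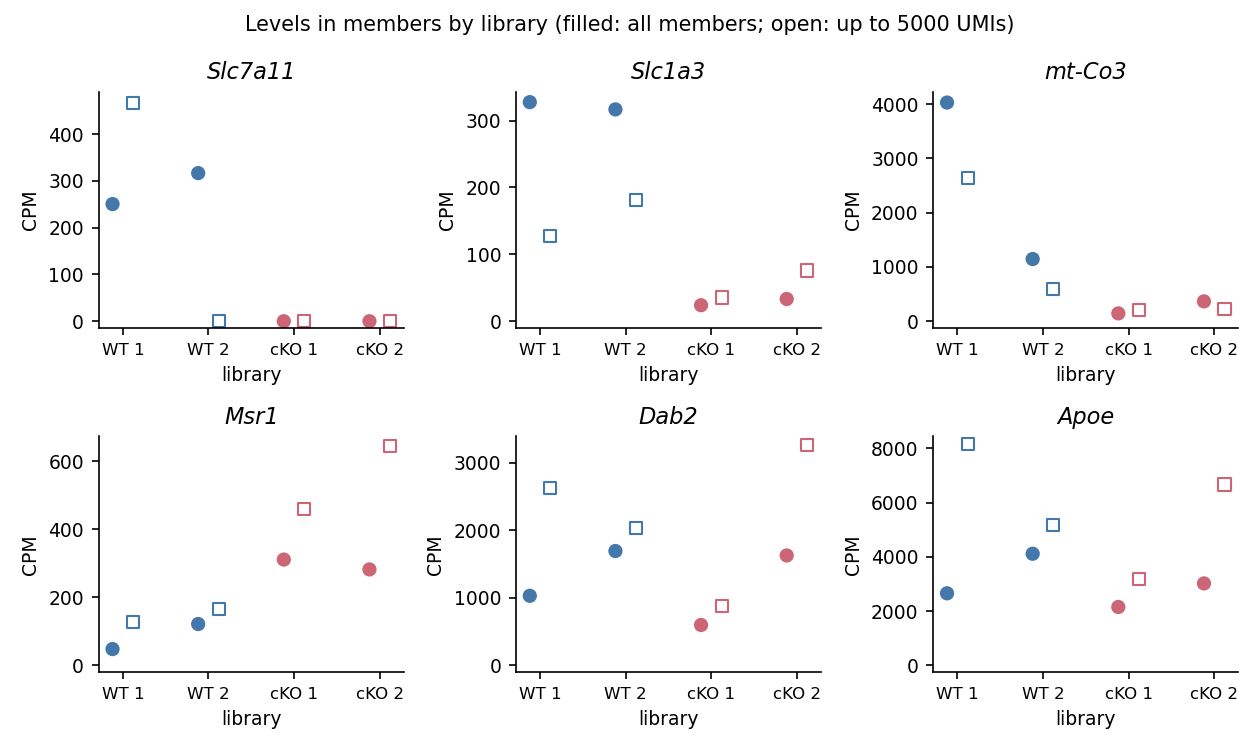
CPM of 6 genes in the members of each library (blue WT, red cKO), for all members (filled) and for nuclei up to 5000 UMIs (open). Dab2 and Apoe overlap between the genotypes, Msr1 is higher in both cKO libraries, and Slc7a11 in WT replicate 2 is at 0 once deeper nuclei are left out.

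Whether the genotype difference in the members was another than in microglia-type nuclei was tested directly as an interaction of class and genotype. Of 3343 genes, 2 passed (0.0598%), and 175 had an unadjusted p under 0.05. In simulated data this interaction test recovered 0% of genes changed by 1 on the log2 scale. It recovered 7.55% of those changed by 2 and 42.5% of those changed by 3. The small number of calls therefore does not show that the genotype effects were alike in the classes. Gm26871, a noncoding transcript whose locus holds Mir137, had 18, 8, 46 and 50 UMIs in the members and 64, 171, 32 and 40 in the microglia-type nuclei, and 2610307P16Rik had 18, 15, 1 and 0 and 2, 9, 8 and 20. Of the 46 UMIs of Gm26871 in the members of cKO replicate 1, 39 lay in the nucleus of 13477 UMIs, which held 269 neuron-marker UMIs. Nuclei of over 5000 UMIs held 89.3% and 64.7% of the member UMIs of the 2 genes. Without these nuclei the log2 difference in genotype effect went from 3.61 to 1.23 (SE 1.05) for Gm26871 and from −6.32 to −6.47 (SE 2.08) for 2610307P16Rik. There edgeR called 0 genes, with 56 below an unadjusted p of 0.05. DESeq2 on all nuclei also called 0, with 67 below that value. The edgeR count was 4 without WT replicate 2 and 19 without cKO replicate 2.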

How the data were processed

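The authors deposited 1 matrix of UMI counts per library, with whole-number counts per gene and barcode and a lowest total of 500 UMIs. The submitters' processing notes list the GRCm38 build, Seurat 3.2.3 and Cell Ranger 4.0.0. Whether introns were counted, and against which annotation release, is not given in the sources used here. The members and gene lists were chosen with earlier results of these data known.

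Members followed the rule given above. Counts were summed per library and class and tested with edgeR 4.0.16 in R 4.3.3 (quasi-likelihood test, filterByExpr, TMM, two-sided, Benjamini-Hochberg over all genes tested, threshold 0.05). The genotype fit had no block. The class and interaction fits had the library as a block. The 10 rule genes were fitted but not counted. Shares were compared by exact permutation over libraries. Scrublet (scanpy 1.11.5) scored doublets. Since its own threshold marked 0, 0, 3 and 2 nuclei, the top scores were marked up to 0.8% per 1000 barcodes, and marked nuclei were kept except in an alternative. The tests were checked on simulated data, in which 0 unchanged genes were called in a comparison without differences. Where genes were changed, 1 unchanged gene was called in the genotype fit, 1 in the class fit and 0 in the interaction fit. Named genes were up to 15 with the smallest p in each direction past the threshold, the 5 with the smallest p where fewer than 5 passed, and up to 4 per list with the highest level. Other genes of the lists that are named were chosen after their values were seen. Alternatives were DESeq2 1.42.0, no TMM, no filter, other rule minimums, doublets removed, no mitochondrial maximum, a wider comparison class, a replicate block and each library left out. Leaving out nuclei of over 5000 UMIs was added after seeing the data. Gene positions come from the GRCm38 annotation.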

Additional observations from a re-analysis of the deposited data

Results flagged for a closer look

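The genotype effect (cKO against WT) differed between the members and microglia-type nuclei for Gm26871 by 3.61 on the log2 scale (SE 0.70, edgeR adjusted p = 0.0222), and the difference was 1.23 without nuclei of over 5000 UMIs. For 2610307P16Rik it differed by −6.32 (adjusted p = 0.0444), with a ratio of WT to cKO levels in the members of 18.1 (95% interval 3.03 to 736) from 33 and 1 UMIs. Nuclei of over 5000 UMIs held 64.7% of these UMIs. Without such nuclei 2610307P16Rik differed by −6.47 (SE 2.08), and neither gene passed. Among the barcodes removed for mitochondrial UMIs, which entered only the alternative with no mitochondrial maximum, 11 met the gene rule, at 6 of 722 and 3 of 593 in WT replicates 1 and 2 and 2 of 198 and 0 of 213 in cKO replicates 1 and 2. They held a median of 21 UMIs of the 31 other border genes.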

How the results depend on the processing

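The difference in share turned to 0.00743 points without cKO replicate 1 (range over libraries left out −0.184 to 0.00743). The 44 higher and 24 lower genes against microglia-type nuclei became 97 and 84 with at least 3 border genes, 82 and 56 with no mitochondrial maximum, 84 and 73 with no filter, 98 and 88 without nuclei of over 5000 UMIs, 495 and 458 with a comparison of 1 myeloid UMI, and 10 to 60 and 1 to 41 with 1 library left out. At least 2 myeloid genes in the members, as in the comparison, gave 36 higher and 8 lower. The comparison of 1 myeloid UMI also took in neuron-type nuclei, and with it 54 of the 68 genes kept their direction. The named genes that reversed were Siglech (0.19), Cdh23 (0.39), Cd180 (0.30), Itgam (0.68), Tgfbr1 (0.68), Itgb5 (0.73), Cx3cr1 (0.98) and Csf3r (1.14). The 1 genotype call became 0 with at least 3 border genes, 2 myeloid genes, no mitochondrial maximum, without nuclei of over 5000 UMIs or with a replicate block, 5 with doublets removed, 9 without TMM, 18 with no filter and 0 to 23 with 1 library left out. The 2 interaction calls became 0 with at least 3 border genes, 2 myeloid genes, doublets removed, no mitochondrial maximum, DESeq2, no TMM or without nuclei of over 5000 UMIs, and 2 to 19 with 1 library left out. The cause was not tested. The replicate block left 67 genes at an unadjusted p under 0.05. Deviations of same-numbered libraries correlated at 0.00285, so the numbers were not taken to pair them. With no replicate block, the comparison with microglia-type nuclei gave 45 higher and 28 lower. With 14 to 36 members a library, depth limits all genotype values.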
